A study of Mus musculus with 16 samples.

Results

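R7T1 cells, a line of mouse pancreatic beta cells, were compared after 6 h with and without BayK8644, an opener of L-type calcium channels. The comparison used 4 of the 16 arrays of the series, those sampled at 6 h. Both arrays with BayK8644, given alone or together with exendin-4, were set against both arrays without it, the DMSO vehicle and exendin-4 alone. A gene was reported as risen or fallen only where BayK8644 minus DMSO and combination minus exendin-4 had the same sign and the adjusted p of the linear model was under 0.05. The rule uses labels and the agreement in sign of both differences, and the 6 h levels were otherwise free to vary. All 4 groups share the cell line and the sampling time, and each group is 1 array. The labels list the compound as BayK8644(2a) without explaining the 2a, and doses are not given in the sources used here. R7T1 is 1 cell line, so no second beta-cell source stands beside it. Separate cultures are not stated in the labels, and p-values therefore cover the array-to-array spread alone, part of which may be technical. The model takes the effects of BayK8644 and exendin-4 to add up on the log2 scale. Its error is the departure from that sum at each time, so any real interaction of both agents is counted as error in every SE and p. The same treatments were also sampled at 0.5, 2 and 24 h, and those 12 arrays serve here for the error of the model and for comparison over time.

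L-type calcium channels are the main route of calcium entry when a beta cell is depolarised, and that calcium drives insulin release. Calcium entry also switches on transcription, through calmodulin-dependent kinases and CREB, through calcineurin and NFAT, and through the MAP kinase cascade, whose own targets include the Sprouty and DUSP inhibitors that restrain it. BayK8644 is a dihydropyridine that keeps these channels open, and the peptide exendin-4 acts on the receptor for GLP-1, through which cAMP rises.

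Levels are log2 GCRMA intensities, a scale on which a difference of 1 is a 2-fold change, and 10610 genes were tested. The 6 beta-cell markers chosen for this check were present on all 4 arrays at 6 h. The insulin gene Ins2 stood between 15.61 and 15.78, the transcription factor genes Pdx1 and Nkx6-1 between 13.30 and 13.39 and between 12.15 and 12.42, and the glucose transporter gene Slc2a2 between 6.72 and 7.25. Of 12 acinar and duct markers 9 were below log2 4, the level of the low-value filter, on all 4 arrays, and Cela1, Krt7 and Cftr reached it on at least 1 array. Of 21 mesenchymal, endothelial and leukocyte markers 20 were below it on all 4, Vim being the exception. Of 7 markers of other islet cells 4 were below it, and Gcg, Sst and Irx2 reached it. In the wider list of beta-cell identity genes, Ucn3 and Glp1r, the GLP-1 receptor gene, did not pass the low-value filter. As a measure of RNA integrity, the Actb control probe sets at the 3' end read above those at the 5' end by 0.62 (log2) with DMSO, 0.71 with exendin-4, 0.69 with BayK8644 and 0.59 with the combination. The same measure for Gapdh was below 0, at -0.26 with DMSO, -0.22 with exendin-4, -0.22 with BayK8644 and -0.21 with the combination.

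With BayK8644, 181 genes rose (1.71% of the genes tested) and 82 fell (0.773%). The rises were larger than the falls. The median difference was 0.61 among risen genes and -0.49 among fallen genes, 47 genes rose at least 2-fold, and 3 fell at least 2-fold. Genes with the largest rises included cytokine, transcription factor and MAP kinase feedback genes (Il4, Npas4, Spry1, Etv4), and the largest fall was that of the cholesterol exporter gene Abca1. Adjusted p-values are from limma with Benjamini-Hochberg adjustment over all genes tested, and 1586 genes had an unadjusted p under 0.05. Of the 181 risen genes 7 (Kcnh1, Etv4, Bmper, Adamts5, Cmtm8, Cd274 and Rrad) were below log2 4 on all 8 arrays without BayK8644, of any time. They entered the test only through arrays with BayK8644, which favours a call, so their sizes and p-values are a description and their place in a count is no support for it. In RNA from whole cultures, a change in the number of cells that express a gene and a change in RNA per cell cannot be told apart.

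The gap between the 2 differences is the model's error at 6 h, so a gene with a small gap was more readily called, and how alike the differences of called genes were is a description. In 200 of the 263 (76.0%) the larger of the 2 differences was at most 1.5 times the smaller and of the same sign, as in 18.2% of the genes tested. Over all genes tested 61.1% had differences of the same sign. The 2 pairs of arrays share no array. Across the 10610 genes their differences had a Pearson r of 0.471 and a Spearman coefficient of 0.37, a description over genes that come from the same 4 arrays. Both 6 h arrays with BayK8644 lay above both without it for all 181 risen genes, against 24.4% of the genes tested, and below for all 82 fallen genes, against 18.9%. The calls were made on these same arrays, so the separation is a description. The difference was larger on the combination side in 108 of the 181 risen genes and in 29 of the 82 fallen genes. Rgs4 (2.24 alone, 3.96 with exendin-4) was the widest case on that side among the largest rises, and Etv4 (3.58 and 2.08) and Pcp4l1 (2.14 and 0.84) lay on the other side. With 1 array per treatment, a test of whether exendin-4 altered the BayK8644 difference at 6 h was not made.

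**Figure D1:**
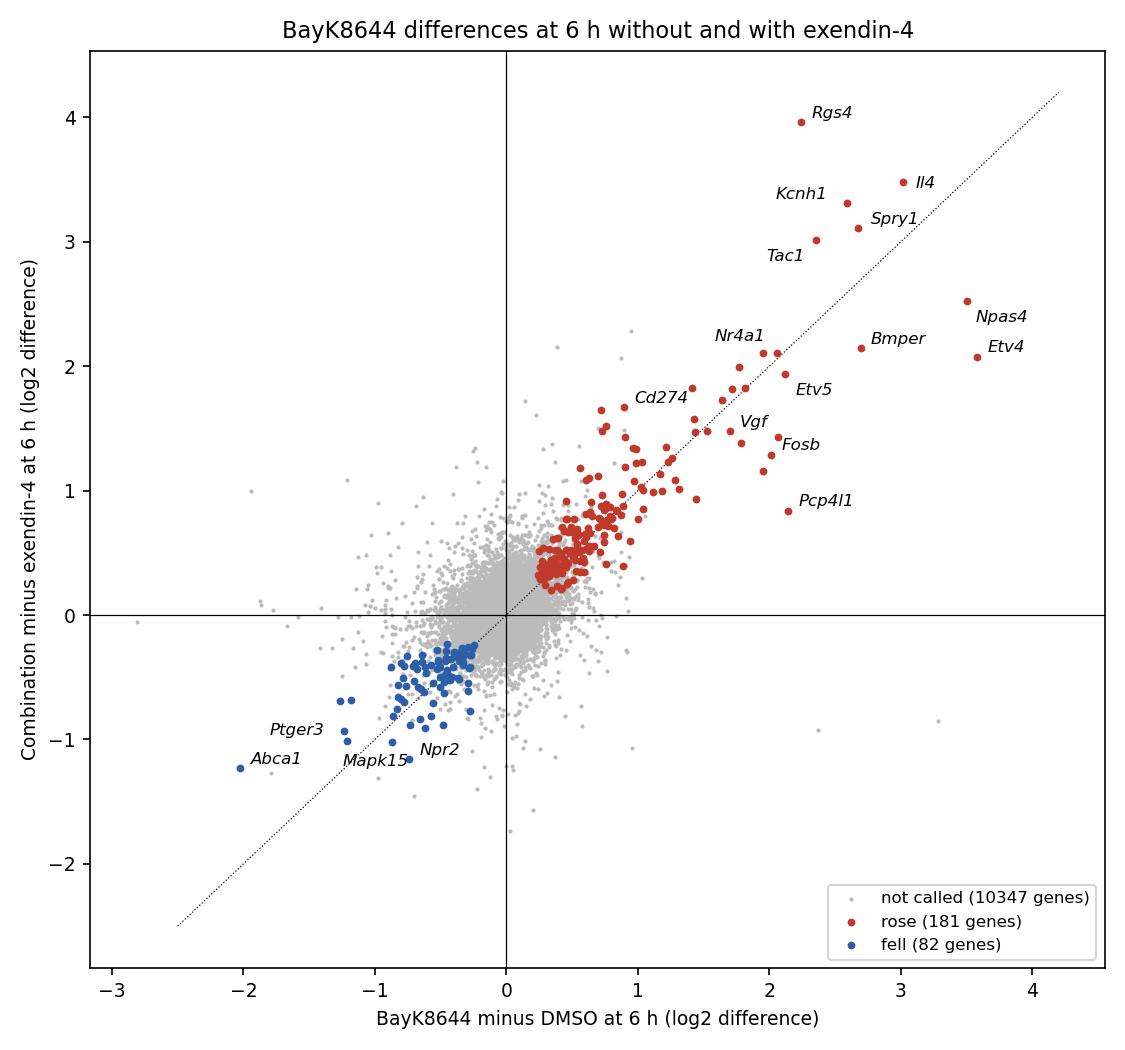
BayK8644 minus DMSO (horizontal, log2) against combination minus exendin-4 (vertical, log2) for the 10610 genes at 6 h; red points are the 181 risen genes, blue points the 82 fallen genes, grey points the rest, and the dotted line marks equal differences. The called genes lie near that line, from Abca1 at lower left (-2.02 and -1.23) to Il4 at upper right (3.01 and 3.48), and Rgs4 and Etv4 lie off it.

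A minority of the immediate-early genes, Npas4 and Nr4a1 foremost, stood higher with BayK8644 at 6 h. Of 24 measured immediate-early genes 7 rose (29.2%, against 1.71% of all genes tested) and 0 fell. Those that rose were Npas4, Nr4a1, Fosb, Ier3, Egr1, Maff and Fos. The median difference was 0.28 over the 24 against 0.01 over all genes tested. Npas4, which encodes a transcription factor induced by calcium entry, stood at 5.48 on the DMSO array, 5.92 with exendin-4, 8.99 with BayK8644 and 8.44 with the combination. Both BayK8644 arrays were far above the others, a rise of 3.01 ± 0.28 (SE, 8.07-fold, limma adjusted p = 0.000929). Nr4a1, an orphan nuclear receptor gene, measured 8.99 and 9.23 without BayK8644 (DMSO, then exendin-4) and 11.05 and 11.33 with it (alone, then combined). The 2 differences of Nr4a1 were nearly equal, and the rise was 2.08 ± 0.08 (4.24-fold, adjusted p = 1.02e-05). Egr1, a zinc finger transcription factor, rose by 1.05 ± 0.13 (adjusted p = 0.0043), and its levels were 10.21 on the DMSO array, 10.27 with exendin-4, 11.33 with BayK8644 and 11.26 with the combination. Fos, a subunit of the AP-1 factor, rose less, by 0.59 ± 0.10 (adjusted p = 0.0178), from 9.69 and 9.68 without BayK8644 to 10.20 and 10.35 with it. Its relative Fosb had a difference of 1.65 ± 0.31 (adjusted p = 0.0281) from levels below log2 4, where the method's floor can set part of the size. Of the 8 arrays without BayK8644 only that with exendin-4 at 0.5 h reached log2 4, and the filter asks for 2. Fosb thus passed the filter only with the help of BayK8644 arrays, which favours a call. Its size and p are a description, and its place in the count of risen immediate-early genes is no support for it. Maff, a small Maf factor gene, rose by 1.02 ± 0.13, with the same 10.07 on both BayK8644 arrays. Ier3, an early response gene that is not itself a transcription factor, showed an uneven pair, 0.72 alone and 1.65 with exendin-4 (adjusted p = 0.0384). Npas4 and Nr4a1 passed whichever of the 16 arrays was left out. The other 5 were lost without some array, and their adjusted p then reached 0.121 for Egr1, 0.11 for Maff, 0.259 for Fos, 0.325 for Fosb and 0.428 for Ier3.

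Among 23 measured CREB and cAMP target genes 5 rose (21.7%, against 1.71% of all genes tested) and 0 fell, with a median of 0.19. Tac1, the substance P precursor gene, had the largest rise of these and stood at 5.99 and 7.13 without BayK8644 (DMSO, then exendin-4) and 8.35 and 10.14 with it (alone, then combined). Tac1 was thus higher with BayK8644 on either background, by 2.68 ± 0.30 (adjusted p = 0.00259). Vgf, which encodes a secretory granule peptide precursor, rose by 1.59 ± 0.08 (3.01-fold, adjusted p = 3.47e-05), from 9.78 and 10.24 to 11.48 and 11.72. The kinase gene Dclk1 rose by 1.23 ± 0.09, with differences of 1.23 and 1.23. Gem and Rrad encode small GTPases of the RGK family, which bind the beta subunit of calcium channels and reduce channel current, and rose by 0.81 ± 0.07 and 0.84 ± 0.15 (adjusted p = 0.000673 and 0.0214). Rrad stood at 2.62 on the DMSO array, 2.61 with exendin-4, 3.35 with BayK8644 and 3.58 with the combination, all below the filter level, and as one of the 7 its size is a description. Another RGK gene, Rem2, rose by 1.18 ± 0.12 (adjusted p = 0.00158), from 8.07 and 8.13 to 9.36 and 9.21. These 3 were the members that passed among 29 measured calcium channel and calcium handling genes (10.3%, against 2.48% of all genes tested). Rrad is in this count and in that of the CREB and cAMP target genes, and its place in either is no support for it. The median of the 29 was 0.01, and 0 fell. The genes of the channel pores themselves, Cacna1c (-0.06 ± 0.10, adjusted p = 0.856) and Cacna1d (-0.24 ± 0.17, adjusted p = 0.569), did not pass. Crem, a cAMP-responsive repressor gene, did not pass either (0.21 ± 0.20, adjusted p = 0.702), and its probe sets differed in sign. Vgf, Dclk1 and Gem passed with each array left out. Tac1, Rrad and Rem2 did not, with adjusted p up to 0.0941, 0.266 and 0.0711.

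Sprouty, DUSP and ETS genes of the MAP kinase feedback list were among the genes that rose. Of 18 measured genes 9 rose and 0 fell, 4 of the 18 differences were below 0, and the median was 0.52. Sprouty genes encode inhibitors of receptor tyrosine kinase signalling to ERK. Spry1 stood at 5.13 on the DMSO array, 4.55 with exendin-4, 7.81 with BayK8644 and 7.65 with the combination, a rise of 2.89 ± 0.14 (7.42-fold, adjusted p = 2.72e-05). Spry4 rose by 1.58 ± 0.14 and Spry2 by 0.85 ± 0.13 (adjusted p = 0.000852 and 0.0132), and the related Spred2 rose by 0.64 ± 0.10, although another of its probe sets had the opposite sign. The DUSP genes encode phosphatases that remove phosphate from MAP kinases. Dusp4 measured 9.06 and 9.02 without BayK8644 (DMSO, then exendin-4) and 11.01 and 11.13 with it (alone, then combined), and Dusp6 8.57 on the DMSO array, 8.52 with exendin-4, 10.21 with BayK8644 and 10.25 with the combination. Both were close to equal within each pair, with rises of 2.03 ± 0.09 and 1.69 ± 0.09 (adjusted p = 1.32e-05 and 3.47e-05), and Dusp5 rose by 0.61 ± 0.07 (adjusted p = 0.00228). Etv4 and Etv5 are ETS transcription factor genes that lie downstream of ERK. Etv5 rose by 2.03 ± 0.11, from 8.72 and 8.67 to 10.84 and 10.60, and Etv4, one of the 7, had a difference of 2.83 from below log2 4. Etv4 is among the 9 that rose, and its place in that count is no support for it. Spry1, Dusp4, Etv5, Dusp6 and Spry4 passed with each array left out, and 5 or 6 of the 9 passed when a 6 h array was left out. Adjusted p reached 0.0882 for Etv4, 0.0735 for Dusp5, 0.198 for Spred2 and 0.212 for Spry2.

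The cytokine gene Il4 showed the largest rise of all genes tested. It stood at 4.01 on the DMSO array, 3.95 with exendin-4, 7.02 with BayK8644 and 7.43 with the combination, with no overlap, a rise of 3.25 ± 0.25 (9.49-fold, adjusted p = 0.00034). Levels without BayK8644 were at the filter level, so the fold depends on the floor of the method. Il4 is a classical NFAT target of T cells. It was the one member to pass of 11 measured calcineurin and NFAT genes (9.09%, against 2.48% of all genes tested), with 0 fallen and a median of -0.03. Rcan1, another calcineurin target, had a difference of 0.00 ± 0.08 (adjusted p = 1), and its probe sets differed in sign. Of 18 measured cytokine and growth factor genes, Bmp2, a ligand of the BMP family, rose by 0.79 ± 0.11, Vegfa, an angiogenic factor gene, by 0.37 ± 0.08, and 0 fell (median 0.16). With Il4, 16.7% of that list rose, against 1.71% of all genes tested. Bmper, which encodes a secreted BMP-binding protein, was at 2.55 and 2.67 without BayK8644 (DMSO, then exendin-4) and 5.25 and 4.82 with it (alone, then combined). Its levels without BayK8644 were near the floor, and its difference of 2.42 is likewise a description. Of these, Il4 passed with each array left out, and adjusted p reached 0.0981 for Bmper, 0.122 for Bmp2 and 0.323 for Vegfa.

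Regulators of G-protein signalling and potassium channel genes held called members beside list medians of 0.10 and 0.15. Of the measured G-protein regulators 17.6% were called, against 2.48% of all genes tested. Rgs4, which encodes a protein that shortens G-protein signals, measured 5.89 on the DMSO array, 4.28 with exendin-4, 8.14 with BayK8644 and 8.25 with the combination. The level with exendin-4 alone was below that with DMSO, and both BayK8644 arrays were above 8, a rise of 3.10 ± 0.39 (adjusted p = 0.00402, up to 0.0891 with an array left out). Rgs17 rose by 0.87 ± 0.18, the receptor kinase gene Grk5 fell by 0.46 ± 0.10, and the median of the 17 measured genes was 0.10. Adjusted p reached 0.435 for Rgs17 and 0.367 for Grk5 with an array left out. Kcnh1, the gene of a voltage-gated potassium channel, was at 2.81 and 2.89 without BayK8644 (DMSO, then exendin-4) and 5.40 and 6.20 with it (alone, then combined). It was near the floor on both arrays without BayK8644, and as one of the 7 genes that entered through BayK8644 arrays its difference of 2.95 is a description. Kcnn2, a calcium-activated potassium channel gene, and Kcnip1, a channel-interacting protein gene, rose by 0.71 ± 0.12 and 0.62 ± 0.09. Thus 3 of 15 measured potassium channel genes rose, against 1.71% of all genes tested, 0 fell, and the median was 0.15. Kcnh1 is among these 3, and its place in the count is no support for it. Kcnh1 passed with each array left out, while Kcnn2 and Kcnip1 reached adjusted p of 0.222 and 0.193.

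**Figure D2:**
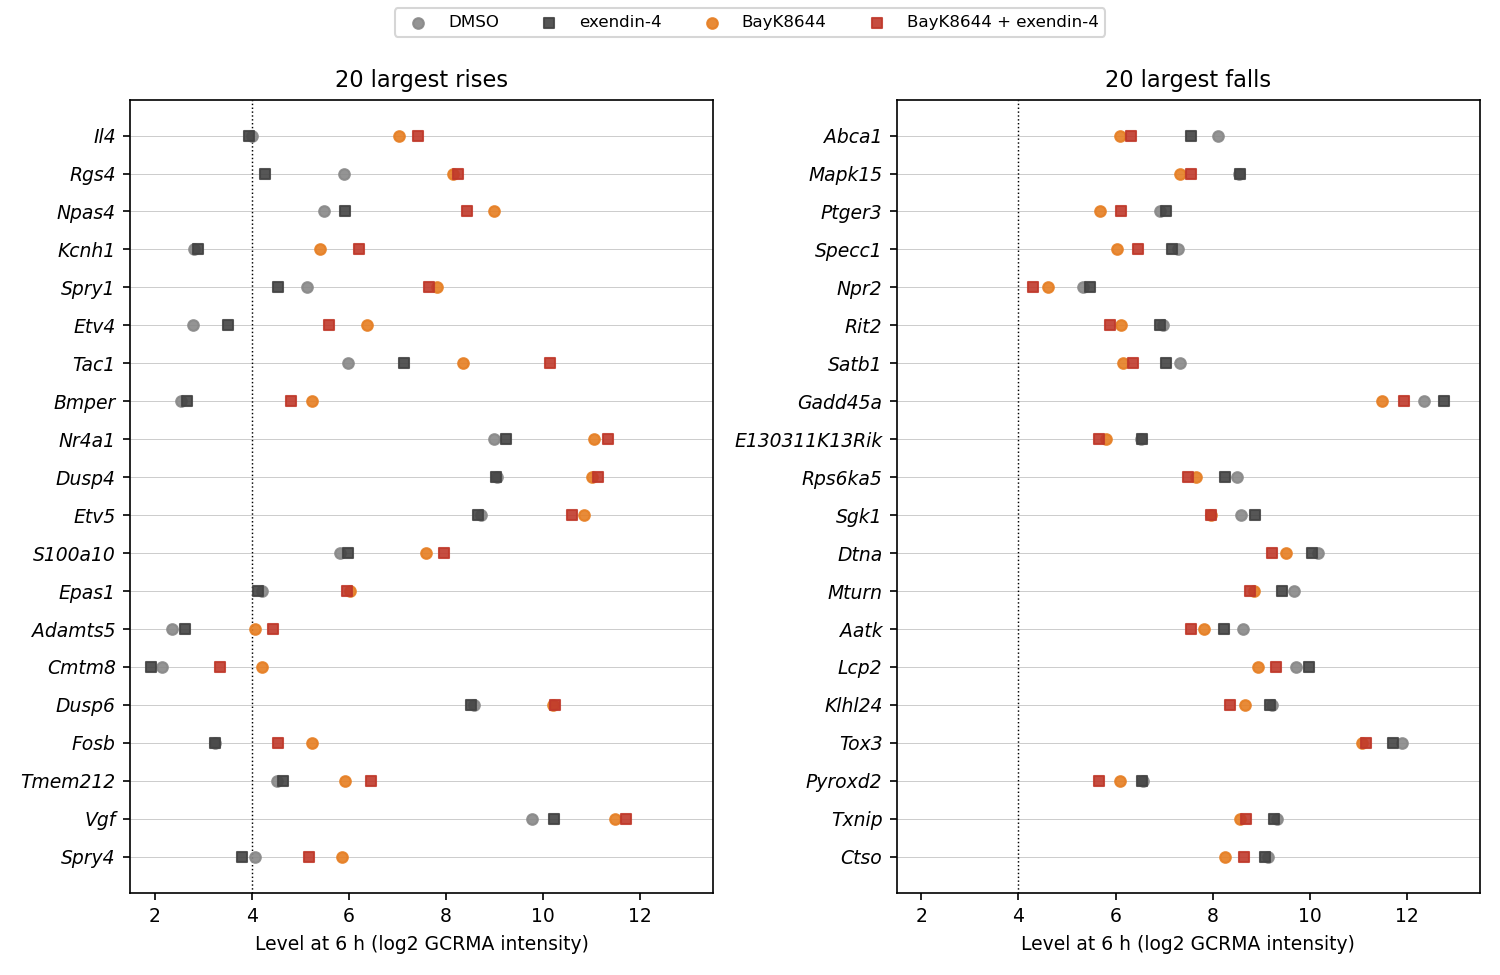
Levels at 6 h (log2 GCRMA intensity) of the 20 genes with the largest rises and the 20 with the largest falls; each row holds 4 points, 1 per array (circles without exendin-4, squares with it, grey without BayK8644, orange and red with it), and the dotted line is the filter level of log2 4. In every row both BayK8644 points lie on the same side of both grey points, Il4 by 3.25 ± 0.25 at the top left and Abca1 by -1.63 ± 0.18 at the top right.

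Part of the genes of the integrated stress response rose, by small amounts. Of 27 measured genes 11 rose (40.7%, against 1.71% of all genes tested) and 0 fell. Of the 27 differences 26 were above 0, as were 5803 of the 10610 over all genes tested, and the median was 0.26. This response lets ATF4 and its partner CHOP raise genes for amino acid supply when translation is slowed. Ddit3, which encodes CHOP, measured 11.95 on the DMSO array, 12.12 with exendin-4, 12.37 with BayK8644 and 12.46 with the combination, a rise of 0.38 ± 0.07 (adjusted p = 0.0251). Cebpb, a bZIP partner, rose by 0.44 ± 0.08, and Nupr1, a stress-induced chromatin protein gene, had the largest rise of the list at 0.78 ± 0.16. The serine synthesis genes Psph (0.59 ± 0.07), Phgdh (0.52 ± 0.09) and Psat1 (0.27 ± 0.06) all rose, as did Mthfd2 (0.38 ± 0.08) of mitochondrial folate metabolism and Asns (0.27 ± 0.05), the asparagine synthetase gene. Psph stood at 12.51 and 12.79 without BayK8644 and at 13.14 and 13.34 with it. Chac1, which degrades glutathione, rose by 0.49 ± 0.07, the lipoprotein receptor gene Vldlr by 0.36 ± 0.07 and the translation repressor gene Eif4ebp1 by 0.59 ± 0.08. Adjusted p-values of the 11 lay between 0.00402 (Psph) and 0.041 (Psat1). Atf4 itself had a difference of 0.14 ± 0.08 (adjusted p = 0.48). With any one 6 h array left out 0 of the 11 passed, so these calls need all 4 arrays, and between 3 and 13 members passed under the other alternatives.

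Promoters of this list are shown because 4 of the risen members hold the letters of an amino acid response element, the site type that ATF4 and its bZIP partners bind. The search covered the 250 bases upstream of the gene start on both strands, for TGATGNAAN. It found a match in 6 of the 22 measured members with a promoter in the RefSeq table (27.3%), in 4 of the 10 risen members with one, in 2.25% of 8698 genes tested and in 3.44% of all 32851 windows. Matches to the letters are a description and not bound sites. The windows below are from RefSeq, build GRCm38.p6, written 5′ to 3′ on the gene's strand, with the match in capitals, which reads in reverse complement where it lies on the other strand. Asns is at chr6:7693210-7693282 on the minus strand, Chac1 at chr2:119350998-119351106 on the plus strand, Nupr1 at chr7:126625523-126625631 on the minus strand and Vldlr at chr19:27216770-27216877 on the plus strand. The match begins 23 bases before the gene start in Asns, 194 in Chac1, 111 in Nupr1 and 201 in Vldlr.
Asns: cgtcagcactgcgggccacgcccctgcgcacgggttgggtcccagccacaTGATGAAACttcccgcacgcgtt
Chac1: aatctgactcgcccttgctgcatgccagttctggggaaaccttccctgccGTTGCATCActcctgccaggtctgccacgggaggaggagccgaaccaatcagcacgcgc
Nupr1: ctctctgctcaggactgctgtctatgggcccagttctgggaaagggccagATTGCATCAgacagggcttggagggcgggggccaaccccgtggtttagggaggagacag
Vldlr: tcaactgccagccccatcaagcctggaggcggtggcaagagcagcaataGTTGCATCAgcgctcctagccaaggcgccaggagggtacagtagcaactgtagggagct

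The 6 genes with a match (also Aars and Gars, which did not pass) had differences from 0.08 to 0.78 with a median of 0.31, and the 16 without a match had a median of 0.27. Among all 139 risen genes with a promoter 5.04% held the letters, Rem2, Idi1 and Got1 beside the 4 shown.

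Some endoplasmic reticulum chaperone genes rose, in the same small range. Of 33 measured genes 8 rose (24.2%, against 1.71% of all genes tested) and 0 fell. Of the 33 differences 31 were above 0, as were 5803 of the 10610 over all genes tested, and the median was 0.17. These genes serve folding and export of secreted proteins and are targets of the factors XBP1 and ATF6. Fkbp11, a prolyl isomerase gene, measured 8.55 on the DMSO array, 9.13 with exendin-4, 9.17 with BayK8644 and 9.83 with the combination, a rise of 0.66 ± 0.12 (adjusted p = 0.023). Exendin-4 alone was also above DMSO for Fkbp11, so the exendin-4 level nearly reached that of BayK8644 alone. The co-chaperone genes Dnajb9 and Dnajb11 rose by 0.55 ± 0.10 and 0.35 ± 0.06, Creld2 by 0.49 ± 0.06, the neurotrophic factor gene Manf by 0.37 ± 0.06, the chaperone gene Hyou1 by 0.35 ± 0.07, Xbp1 by 0.35 ± 0.06 and Selenos, of the degradation machinery, by 0.31 ± 0.07. Hspa5, the gene of the major chaperone BiP, did not pass (0.16 ± 0.04, adjusted p = 0.114). With any one 6 h array left out 0 of the 8 passed, and between 2 and 10 passed under the other alternatives.

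The ER stress element, CCAAT then 9 bases then CCACG on either strand, was searched in the same promoters. It stood in 10 of the 28 members with a promoter (35.7%), against 12 of 8698 genes tested (0.138%) and 0.113% of all windows. Among the 6 risen members with a promoter, Creld2 alone held it, and the medians with and without it were 0.18 and 0.16. The Creld2 window lies at chr15:88819470-88819588 on the plus strand, with the match in capitals on the opposite strand.
Creld2: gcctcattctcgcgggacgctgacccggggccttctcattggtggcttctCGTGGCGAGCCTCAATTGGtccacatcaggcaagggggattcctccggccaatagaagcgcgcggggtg

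For the early response genes the CRE palindrome TGACGTCA, the letters that CREB binds, was searched in the same way. Of the 6 risen immediate-early genes with a promoter, Maff held it, and over all 139 risen genes with a promoter 1.44% held it, against 3.22% of the genes tested. The shorter core TGACG was in 5 of those 6, in 13 of all 19 measured immediate-early genes with a promoter (68.4%), in 30.2% of all risen genes and in 32.3% of the genes tested. The AP-1 letters TGANTCA were in 0 of the 19, in 9.35% of all risen genes and in 4.84% of the genes tested. The window of Maff lies at chr15:79347441-79347519 on the plus strand.
Maff: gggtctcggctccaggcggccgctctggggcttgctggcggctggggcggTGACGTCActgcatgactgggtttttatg

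Several sterol biosynthesis genes also rose. Of 20 measured genes 8 rose (40.0%, against 1.71% of all genes tested) and 0 fell. Of the 20 differences 18 were above 0, as were 5803 of the 10610 over all genes tested. The median was 0.34, above that of the stress lists. The enzymes of this pathway convert acetyl-CoA to cholesterol and share control by SREBP2. Idi1, the isopentenyl diphosphate isomerase gene, measured 11.09 and 11.19 without BayK8644 (DMSO, then exendin-4) and 11.63 and 11.77 with it (alone, then combined). The rise was 0.56 ± 0.10 (adjusted p = 0.0197). Sqle, the squalene epoxidase gene, was at 12.69 on the DMSO array, 12.70 with exendin-4, 13.05 with BayK8644 and 13.11 with the combination, a rise of 0.39 ± 0.05 (adjusted p = 0.00588). Lss (0.50 ± 0.09), Fdft1 (0.49 ± 0.09), Cyp51 (0.48 ± 0.07), Nsdhl (0.45 ± 0.07), Msmo1 (0.43 ± 0.08) and Fdps (0.40 ± 0.06), all enzymes from farnesyl diphosphate to the later sterol steps, rose too. Srebf2, which encodes SREBP2, did not pass (0.33 ± 0.09, adjusted p = 0.105). With any one 6 h array left out 0 of the 8 passed, and between 2 and 9 passed under the other alternatives.

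Abca1, which exports cholesterol from the cell and is a target of the sterol sensor LXR, moved the other way. It stood at 8.12 on the DMSO array, 7.55 with exendin-4, 6.09 with BayK8644 and 6.32 with the combination. Both BayK8644 arrays were below both others by more than 1, a fall of 1.63 ± 0.18 (3.09-fold, adjusted p = 0.00228). The 10 measured LXR target and efflux genes had 0 risen and a median of -0.06. Abca1 was the only member to pass, 1 of 10, where 0.773% of all genes tested fell. With 1 array left out its adjusted p rose to at most 0.0549.

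**Figure D3:**
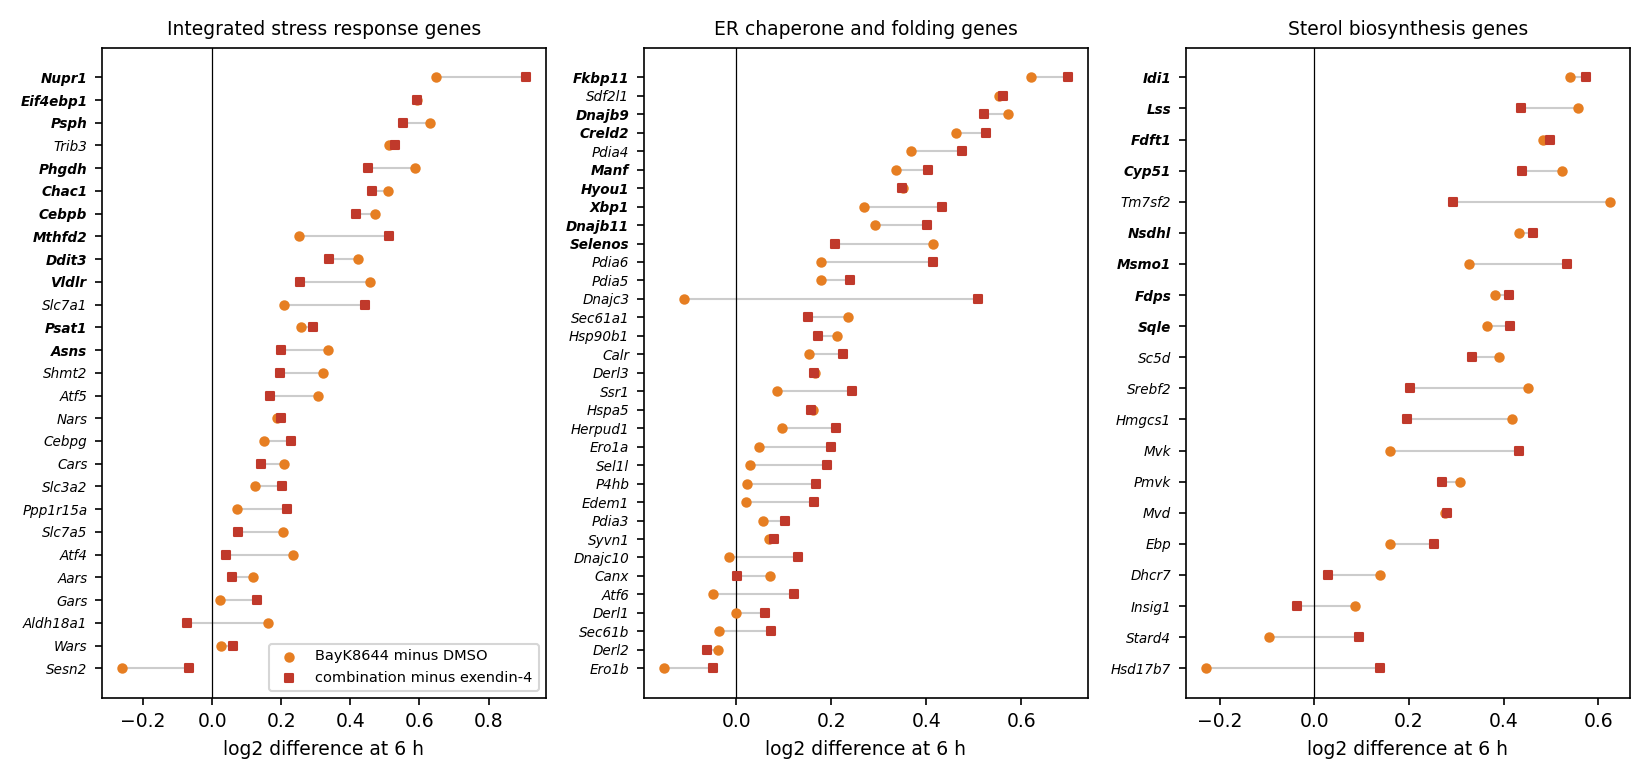
Both differences at 6 h (log2) for each measured gene of 3 lists, BayK8644 minus DMSO as orange circles and combination minus exendin-4 as red squares, joined by a line; genes that rose have bold names. Nearly all points lie right of 0, with medians of 0.26 for the integrated stress response, 0.17 for the ER chaperones and 0.34 for sterol synthesis.

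Some FoxO targets and quiescence genes fell with BayK8644. Of 29 measured genes 7 fell (24.1%, against 0.773% of all genes tested) and 0 rose. Of the 29 differences 23 were below 0, as were 4802 of the 10610 over all genes tested. The median was -0.20, the lowest of the 25 lists. Gadd45a, a growth arrest and DNA damage gene, measured 12.35 and 12.75 without BayK8644 (DMSO, then exendin-4) and 11.49 and 11.95 with it (alone, then combined). Each BayK8644 array was below its own control, a fall of 0.84 ± 0.07 (adjusted p = 0.000673). Txnip, a thioredoxin inhibitor gene that responds to glucose, fell by 0.66 ± 0.11 (adjusted p = 0.0143), from 9.32 and 9.26 to 8.56 and 8.70. Foxo3 itself fell by 0.54 ± 0.11, Ypel5 by 0.62 ± 0.11, the cyclin G gene Ccng2 by 0.52 ± 0.11, the sestrin gene Sesn3 by 0.49 ± 0.07 and Mxi1, a MYC antagonist gene, by 0.48 ± 0.09 (adjusted p between 0.00581 and 0.0403). Gadd45a passed with each array left out, and the other 6 did not, with adjusted p between 0.145 (Sesn3) and 0.377 (Ccng2) at their highest.

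Single cell cycle genes passed the test at 6 h. Ccnd2, which encodes cyclin D2 of the G1 phase, measured 12.54 on the DMSO array, 12.74 with exendin-4, 13.23 with BayK8644 and 13.45 with the combination. It rose by 0.70 ± 0.06 (1.62-fold, adjusted p = 0.000437) and passed with each array left out. Of 38 measured G1/S and replication genes, Ccnd2 was the one that rose and Pola1, the DNA polymerase alpha gene, the one that fell (by 0.33 ± 0.06), 5.26% of the list against 2.48% of all genes tested, with a median of -0.07. Of 39 measured G2/M and mitosis genes 3 fell (7.69%, against the 0.773% of all genes that fell) and 0 rose, namely Ncapd2 of condensin (by 0.35 ± 0.07), the kinesin gene Kif22 (by 0.27 ± 0.06) and the cytokinesis gene Racgap1 (by 0.24 ± 0.05). In that list 34 of 39 differences were below 0 and the median was -0.12, while 0 of the 39 passed with any one 6 h array left out. Mki67, the proliferation marker gene, stood at 13.78 and 13.81 without BayK8644 (DMSO, then exendin-4) and 13.69 and 13.68 with it (alone, then combined) and did not pass (-0.12 ± 0.08, adjusted p = 0.567). Cdkn1a, which encodes the inhibitor p21, did not pass (0.21 ± 0.06, adjusted p = 0.149). Ccnd1, the cyclin D1 gene, had differences of opposite sign, -1.22 alone and 1.08 with exendin-4, around the filter level.

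Of 25 measured beta-cell identity genes 1 rose and 2 fell, 12% of the list against 2.48% of all genes tested, with a median of -0.05. Glis3, a transcription factor gene of the beta cell, rose by 0.73 ± 0.15 (adjusted p = 0.0437). Nkx2-2, a homeodomain factor gene, measured 12.71 on the DMSO array, 12.85 with exendin-4, 12.43 with BayK8644 and 12.43 with the combination, a fall of 0.35 ± 0.06 (adjusted p = 0.0143). The granule protein gene Sytl4 fell by 0.48 ± 0.05 (adjusted p = 0.0018), and its other probe set had the opposite sign. Ins2 (0.00 ± 0.06, adjusted p = 0.997) and Pdx1 (-0.05 ± 0.05, adjusted p = 0.717) did not pass, and whether the Ins2 signal was saturated was not tested. Of 29 measured secretory granule and exocytosis genes 13.8% were called, against 2.48% of all genes tested, and the median was -0.01. Vgf rose, and Sytl4 and the calcium sensor genes Doc2b and Syt13 fell (Doc2b by 0.56 ± 0.10, Syt13 by 0.51 ± 0.07). Of these 6 genes Vgf passed with each array left out, and the highest adjusted p of the others lay between 0.0556 (Sytl4) and 0.307 (Glis3).

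One measured marker of other islet cells, Gcg, and the one measured mesenchymal marker, Vim, rose. Gcg, the glucagon gene, stood at 9.13 on the DMSO array, 9.60 with exendin-4, 9.71 with BayK8644 and 10.06 with the combination, so the exendin-4 array was close to the BayK8644 array, and it rose by 0.52 ± 0.10 (adjusted p = 0.0348). Sst, the somatostatin gene, did not pass at 6 h (0.63 ± 0.18, adjusted p = 0.117), with 0.30 alone and 0.97 with exendin-4. The log2 of the summed intensity of the 7 islet markers was 9.31 with DMSO, 9.73 with exendin-4, 9.85 with BayK8644 and 10.20 with the combination, with Ppy, Pyy, Ghrl and Hhex near the floor. Gcg made up most of that sum. Irx2 was nearly level, at 4.53 with DMSO, 4.51 with exendin-4, 4.55 with BayK8644 and 4.52 with the combination. Gast, the gastrin gene, rose by 0.79 ± 0.10 (adjusted p = 0.00471). Vim, an intermediate filament gene, measured 10.06 and 10.13 without BayK8644 (DMSO, then exendin-4) and 10.65 and 10.47 with it (alone, then combined) and rose by 0.47 ± 0.09 (adjusted p = 0.0281). The summed log2 intensity of the 21 mesenchymal, endothelial and leukocyte markers, most of it from Vim, ranged from 10.21 to 10.27 without BayK8644 and from 10.59 to 10.75 with it, with collagen, Pecam1 and Ptprc genes near the floor. That of the 12 acinar and duct markers was 9.74 and 10.05 without and 9.72 and 9.98 with BayK8644. What part these markers have in the other results was not tested.

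Further genes with large falls came from many families. Mapk15, an atypical MAP kinase gene, measured 8.53 on the DMSO array, 8.57 with exendin-4, 7.32 with BayK8644 and 7.56 with the combination, a fall of 1.11 ± 0.12 (adjusted p = 0.00228). Ptger3, a prostaglandin E2 receptor gene, fell by 1.08 ± 0.16, from 6.91 and 7.03 to 5.68 and 6.10. Specc1 (by 0.98 ± 0.20), the natriuretic peptide receptor gene Npr2 (by 0.95 ± 0.15), the small GTPase gene Rit2 (by 0.95 ± 0.15) and the chromatin organiser gene Satb1 (by 0.93 ± 0.17) fell by nearly as much. The kinase genes Rps6ka5, Sgk1 and Aatk fell by 0.79 ± 0.12, 0.76 ± 0.15 and 0.74 ± 0.10. Dtna, Mturn, Lcp2, Klhl24, Tox3, Pyroxd2, Ctso and E130311K13Rik, the remaining genes of the 20 largest falls beside Abca1, Gadd45a and Txnip, fell by between 0.65 and 0.81. Mapk15 reached an adjusted p of 0.0832 with an array left out, Ptger3 0.177 and Specc1 0.405.

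The remaining genes of the 20 largest rises had varied roles. Epas1, which encodes the hypoxia-inducible factor HIF-2 alpha, measured 4.21 and 4.13 without BayK8644 (DMSO, then exendin-4) and 6.03 and 5.96 with it (alone, then combined). The rise of 1.82 ± 0.17 (adjusted p = 0.000918) was nearly the same in size on both backgrounds, 1.81 and 1.82. Adamts5, a matrix protease gene, and Cmtm8, both below log2 4 without BayK8644 and both of the 7, had differences of 1.77 and 1.75. S100a10, the annexin A2 partner gene, rose by 1.88 ± 0.24, the small GTPase gene Rhou by 1.45 ± 0.09 and Tmem212 by 1.62 ± 0.34. Epas1, Adamts5 and Rhou passed with each array left out, but Adamts5 was lost with no filter on low values, when another of its probe sets stood for it (a difference of 0.06, adjusted p = 0.924), while Tmem212 reached an adjusted p of 0.412, S100a10 of 0.118 and Cmtm8 of 0.0687.

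The remaining lists held few called genes in number. The share called was 10.7% for insulin, IGF and AKT signalling genes, 12.5% for clock genes and 8.33% for glycolysis and hypoxia genes, against 2.48% of all genes tested. Of 28 measured insulin, IGF and AKT signalling genes, the pseudokinase genes Trib1 (0.80 ± 0.12) and Trib2 (0.69 ± 0.09) and the IGF-binding protein gene Igfbp4 (0.67 ± 0.07) rose, 0 fell, and the median was -0.01. Irs2, an insulin receptor substrate gene, did not pass (-0.33 ± 0.15, adjusted p = 0.334). Among 16 clock genes Nfil3 rose by 0.89 ± 0.17 and Nr1d2, the REV-ERB beta gene, fell by 0.39 ± 0.07, with a median of 0.01. In the 24 glycolysis and hypoxia genes Vegfa rose and Txnip fell, with a median of 0.08. Of 19 apoptosis and survival genes and of 13 reference genes 0 passed, with medians of -0.07 and 0.06.

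**Figure D4:**
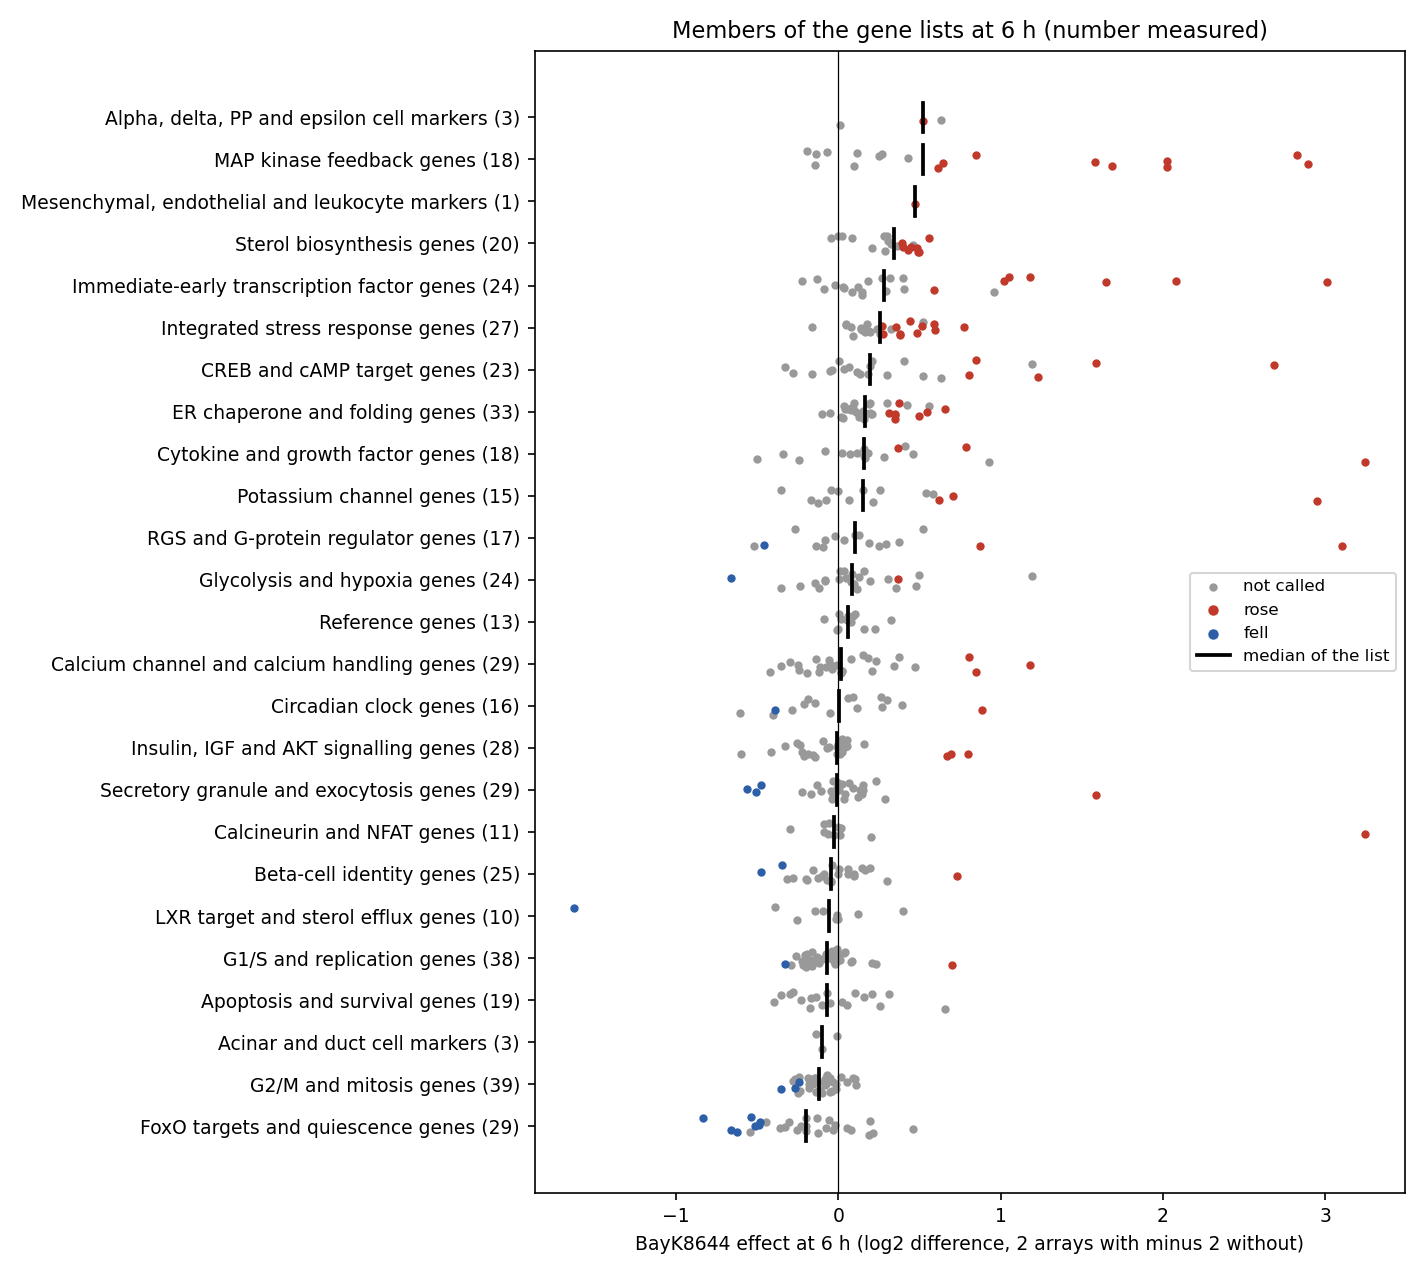
BayK8644 effect at 6 h (log2, mean of both differences) for every measured member of the 25 gene lists, with risen genes in red, fallen genes in blue, others in grey and the list median as a black bar. Lists are ordered by median, from -0.20 for FoxO targets and quiescence genes up to 0.52 for MAP kinase feedback genes and 0.52 for the 3 measured markers of other islet cells.

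Of the 263 called genes 180 belonged to none of the lists, and the following were picked after their values were seen. Nab1 and Nab2, corepressors of the EGR factors, rose by 0.73 ± 0.10 and 1.09 ± 0.16. Nfkb2 (1.10 ± 0.11), Relb (0.76 ± 0.12) and Nfkbia (0.38 ± 0.06) of the NF-kappaB family rose, and Cd274, the PD-L1 gene and one of the 7 under the filter level without BayK8644, had a difference of 1.28. Nfkb2 stood at 8.57 on the DMSO array, 8.42 with exendin-4, 9.56 with BayK8644 and 9.65 with the combination. Id1 and Id2, inhibitors of bHLH factors, rose by 1.05 ± 0.09 and 0.36 ± 0.07, and the metallothionein genes Mt1 and Mt2 by 0.84 ± 0.08 and 0.61 ± 0.12. Bhlha15, a bHLH factor gene of secretory cells, rose by 1.56 ± 0.20, from 3.45 and 4.35 to 5.40 and 5.51. The tubulin gene Tubb6 (0.76 ± 0.08), the lamin A gene Lmna (0.74 ± 0.08), the tropomyosin gene Tpm1 (0.59 ± 0.09), the actinin gene Actn1 (0.44 ± 0.07), Tagln2 (0.34 ± 0.07) and the calcium-binding protein gene S100a6 (0.79 ± 0.10) rose. These are single genes, and how many others of their kinds rose was not counted. The aminotransferase genes Bcat1 (1.03 ± 0.11) and Got1 (0.50 ± 0.08), the cystathionine lyase gene Cth (1.14 ± 0.21), Aass of lysine breakdown (1.17 ± 0.21) and the amino acid transporter gene Slc7a3 (0.65 ± 0.08) also rose. Among falls, the prion protein gene Prnp fell by 0.54 ± 0.07, the ubiquitin ligase gene Nedd4l by 0.62 ± 0.07, and Wnt4, a secreted Wnt ligand gene, by 0.50 ± 0.08.

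The same genes were then followed at the other times, whose differences the rule did not use, although the model's error is shared. At 2 h 88 of the risen genes rose too, where 1.15% of all genes tested did, and 25 of the fallen genes fell, where 0.481% did. At 24 h the counts were 131 of 181 (2.99% of all genes) and 50 of 82 (2.12%). At 0.5 h 12 of the 181 had risen (0.217% of all genes) and 0 of the 82 had fallen (0%). The median difference of the 181 risen genes was 0.06 at 0.5 h, 0.51 at 2 h and 0.53 at 24 h, and that of the 82 fallen genes was -0.02, -0.35 and -0.41. The root mean square residual of the model differed by time, at 0.051 for 0.5 h, 0.074 for 2 h, 0.070 for 6 h and 0.092 for 24 h, so counts at different times are not on 1 scale. As a description, both 6 h arrays with BayK8644 lay above all 8 arrays without it, of any time, for 163 of the 181 risen genes (9.82% of the genes tested) and below all 8 for 75 of the 82 fallen genes (7.31%). The calls were made on these BayK8644 arrays and on 2 of the 8, so nothing is read from these counts.

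Calls at 6 h and changes from 0.5 h use the same 6 h difference and error, so their overlap of 33 genes is a description. The 263 called genes are 2.48% of the genes tested. The BayK8644 difference at 6 h differed from that at 0.5 h in 39 genes (0.368% of the genes tested, 849 at an unadjusted p under 0.05). The count ran from 2, without the 6 h array of DMSO or BayK8644, to 72 with 1 array left out. Il4 and Etv5 had differences near 0 at 0.5 h (-0.04 and 0.06) against 3.25 and 2.03 at 6 h (adjusted p of the difference = 0.00517 and 0.00189). Kcnh1, which entered the test only through arrays with BayK8644, had -0.05 at 0.5 h and 2.95 at 6 h, as a description. Fos and Egr1 went the other way, from 2.78 and 2.87 at 0.5 h to 0.59 and 1.05 at 6 h (adjusted p = 0.000358 and 0.00517). Npas4 had 2.75, 3.02, 3.01 and 3.11 over the 4 times, and its 6 h and 0.5 h values did not differ past the threshold (adjusted p = 0.936). Abca1 was at 0.10, -1.47, -1.63 and -0.58, lowest at 6 h, and Gadd45a at -0.36, -0.59, -0.84 and -1.07.

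Against 2 h and 24 h, 0 genes differed past the threshold in limma (0% each, with 353 and 484 at an unadjusted p under 0.05). The smallest adjusted p against 2 h among the called genes was that of Rrad (2.71 at 2 h and 0.84 at 6 h, adjusted p = 0.0849), and against 24 h that of Cox6a2, a cytochrome c oxidase subunit gene (1.15 at 6 h and 2.75 at 24 h, adjusted p = 0.199). Passing at 6 h and at no other time, as 54 of the 263 did, therefore does not show a difference between times. Matn3, a matrix protein gene, had the smallest 6 h adjusted p of the 54, with differences of 0.18, 0.08, 1.13 and 0.23. In the sterol list Idi1 was at 0.89 at 2 h, 0.56 at 6 h and 0.47 at 24 h, and Sqle at 0.60, 0.39 and 0.12.

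**Figure D5:**
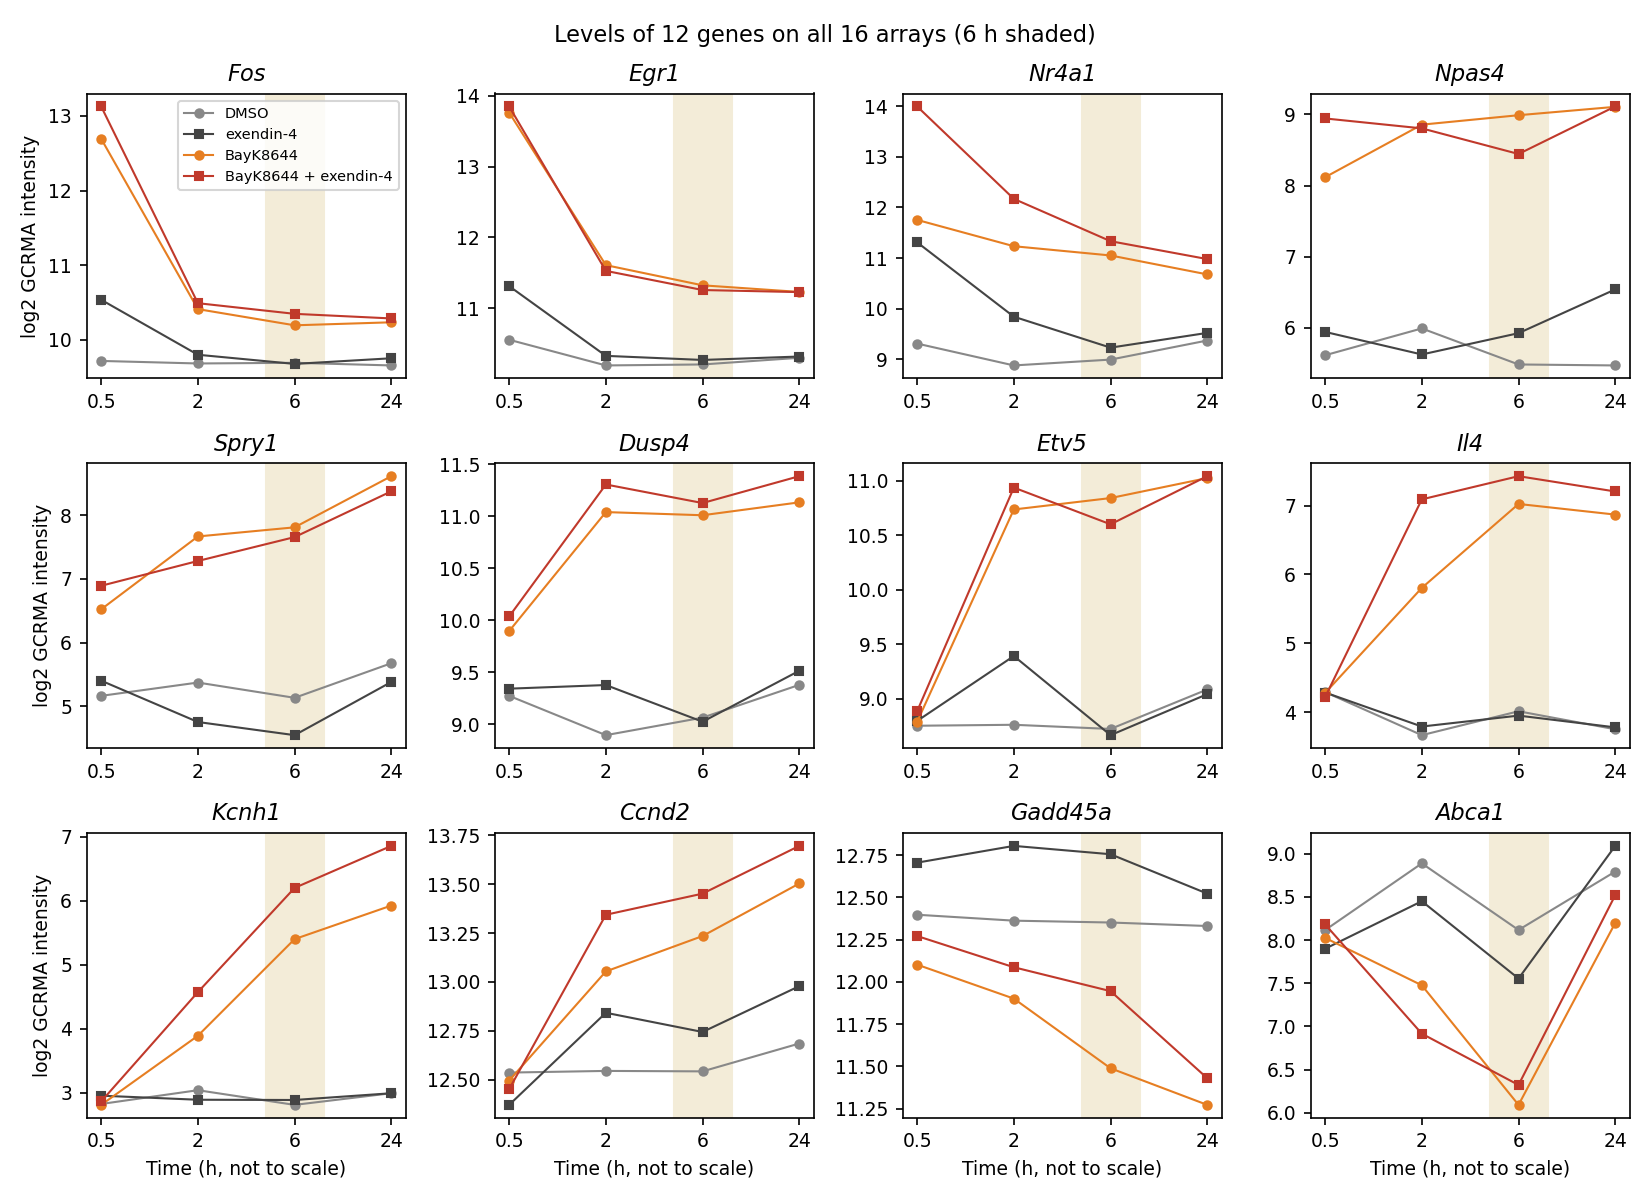
Levels (log2 GCRMA intensity) of 12 genes on all 16 arrays by time (0.5, 2, 6 and 24 h, spaced evenly), with grey lines without BayK8644, orange with BayK8644, red with the combination, and 6 h shaded; each point is 1 array. Fos and Egr1 are highest at 0.5 h, Il4, Etv5 and Kcnh1 separate later, and Abca1 is lowest at 6 h with BayK8644 (6.09 and 6.32).

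The calls at 6 h rest on few arrays. Of 114 called genes named by rule, 17 passed whichever of the 16 arrays was left out and 97 were lost in at least 1 case, and 93 of the 114 passed in a fit of the 6 h arrays alone. No difference of the 114 changed sign under any alternative. The rule asks for the same sign in both differences, and leaving out a 6 h array keeps 1 of them. Leaving out any other array does not change the 6 h difference, so the unchanged signs are a description. Whichever array of another time is left out, that time's only departure from the sum is lost and the fit is nearly the same. The 16 cases are thus not 16 separate checks. Kcnh1 and Adamts5, among the 17, entered the test only through arrays with BayK8644, and their passing is a description too. In all, 30 genes were called when DMSO or BayK8644 alone lost its 6 h array, 39 when exendin-4 or the combination did, and 126 with any single array of 0.5 h omitted.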

How the data were processed

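RNA of R7T1 cells was measured on 16 1-colour arrays of 45101 probe sets, and the 4 arrays of 6 h were compared. Per the submitters' processing notes the authors used GCRMA. The deposited values are linear intensities, and their log2 was taken with no pseudocount. GCRMA corrects background, quantile-normalizes arrays and summarises probes, which compresses low values near a floor. The sources used here do not give its version, the scanner or further steps. Array medians of intensity ran from 10.5 to 11.6. The number of arrays limits the precision.

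Platform annotation gave 34958 probe sets 1 symbol, 932 several and 9211 none. The 64 controls were left out. Probe sets with 1 symbol and log2 of at least 4 on at least 2 of 16 arrays (19204) were kept, and the one with the highest mean stood for its gene. The model (R 4.3.3, limma 3.58.1, lmFit and eBayes with a trend) held time, and a BayK8644 and an exendin-4 effect at each time, fitted on all 16 arrays with 4 residual degrees of freedom. The 6 h difference used only 6 h arrays, and the error was pooled over times. It was checked on simulated data. Genes were named by rule: the 20 largest rises and falls, called members of 25 lists, the 8 smallest adjusted p-values of each contrast between times among genes called at 6 h, and 14 fixed genes. The other genes given are list members set beside them or, like Pcp4l1, Matn3 and those described so in the text, genes picked after their values were seen. The lists, the rule and the comparison were chosen with earlier results of these data known. Promoters came from a RefSeq table (GRCm38.p6), with 205 of the 263 called genes matched. The labels carry no replicate numbers.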

Additional observations from a re-analysis of the deposited data

Results flagged for a closer look

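Of the genes named by rule, 22 had a BayK8644 difference at 6 h that differed from that at 0.5 h in a direct test of the change between times (limma, adjusted p under 0.05). Over all genes tested 39 did (0.368%). The naming rule takes the smallest adjusted p-values of this contrast and the largest 6 h differences, so the count of 22 is a description. The change is given as 6 h minus 0.5 h on the log2 scale. It was 3.29 for Il4, 3.0 for Kcnh1, 1.99 for Adamts5, 1.97 for Cmtm8, 1.96 for Etv5, 1.72 for Epas1, 1.55 for Spry4, 1.47 for Spry1 and 1.37 for Dusp4. It was 1.29 for Vgf, 1.22 for Rhou, 1.14 for Dclk1, 1.13 for Rem2, 0.92 for Dusp6, 0.69 for Psph and 0.68 for Ccnd2. It was negative for Fos (-2.20) and Egr1 (-1.82), whose differences were above 0 at both times and smaller at 6 h. It was also negative for the fallen genes Abca1 (-1.72), Ptger3 (-1.38), Mapk15 (-1.15) and Sytl4 (-0.52). Adjusted p-values lay between 0.000358 (Fos) and 0.0464 (Ptger3). Kcnh1, Adamts5 and Cmtm8 entered the test only through arrays with BayK8644, so their values and their place in the 22 are a description.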

How the results depend on the processing

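The 263 genes called at 6 h became 131 when both differences had to reach 0.5, 171 with no filter on low values, 143 without the intensity trend, 127 without the 0.5 h arrays and 410 without the 24 h arrays. With 1 array left out at a time the count ranged from 30 to 412. It was 30 without DMSO or BayK8644 of 6 h, 39 without exendin-4 or the combination of 6 h, 126 without any one array of 0.5 h and 411 to 412 without any one of 24 h. For a left-out 6 h array, the lone pair is assumed to vary like the other times. The 39 genes whose difference changed from 0.5 to 6 h became 59 after another quantile normalization, 18 with all probe sets tested and 71 without the 24 h arrays. Leaving out 1 array gave 2 to 72: 2 without DMSO or BayK8644 of 6 h, 11 without the other 6 h arrays, 4 without any one of 0.5 h and 71 to 72 without any one of 24 h. Against 2 h, 0 genes became 1 with no filter and 1 with a pseudocount of 16, and against 24 h, 0 became 8 and 1. Both stayed at 0 with each array left out. The settings not named kept the counts within 1.5 times. No named gene reversed, and for called genes the same-sign rule allowed none when an array was left out. Pairing by replicate was not possible because the labels carry no replicate numbers. Arrays are matched by exendin-4 background and time in the model itself. Levels under log2 4 lie near the floor, where 8 risen genes had both arrays without BayK8644.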
